A study of Homo sapiens with 8 samples.

Results

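AMIGO2, FAM43A, SHISA2, PHLDB2, SIPA1L2, PPFIBP2, MACC1 and EPPK1 are 8 genes, of 19775 read on the arrays, whose signal was low in MDA-MB-453 cells given androgen. They were grouped as early and lasting androgen-repressed surface genes because earlier work on these arrays had placed them among the largest falls against vehicle. All comparisons of the 8 genes with vehicle are therefore descriptions and carry no test. A gene's probe sets were those annotated to its symbol alone, 21 in all, and the one with the highest mean over the 8 arrays stood for the gene. The working name held in part. The differences from vehicle at 4 h of MACC1 (-0.16 on the log2 scale) and EPPK1 (-0.06) were small, so "early" describes the other 6. "Surface" describes few of the proteins: AMIGO2 is a transmembrane adhesion protein, SHISA2 sits in the membrane of the endoplasmic reticulum, and PHLDB2, SIPA1L2, PPFIBP2, MACC1 and EPPK1 work inside the cell, at its cortex, in signalling or on its filaments.

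MDA-MB-453 is an established human breast cancer cell line that responds to androgen. Cells were held for 3 days without phenol red in medium with 5% charcoal/dextran-treated serum, which is low in steroids. They then received vehicle, or 10 nM of the potent androgen 5α-dihydrotestosterone (DHT) for 4, 16 or 48 h. Total RNA of 2 biological replicates per group was hybridised to 8 arrays. The labels do not say how long the vehicle cells were kept, so time under DHT and time in culture cannot be told apart, and as a single cell line the model speaks for that line. A lower signal from bulk RNA can come from fewer cells with the transcript or from less of it per cell, which cannot be told apart here.

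Androgens act through a hormone-bound transcription factor that activates some genes and represses others, together with pioneer factors and corepressors. Apocrine breast cancers are known for responding to androgen while lacking the estrogen receptor. The 8 proteins belong to separate systems. AMIGO2 carries leucine-rich repeats and an immunoglobulin domain and mediates cell adhesion and survival. SHISA2 holds back FGF and Frizzled receptors during their maturation. PHLDB2, also known as LL5β, binds phosphoinositides and anchors microtubule ends at the cell cortex, and PPFIBP2 is a liprin-beta scaffold of adhesion sites. SIPA1L2 switches off Rap GTPases, which control integrin adhesion and cell junctions. MACC1 drives transcription of the MET receptor and is linked to metastasis, and EPPK1 (epiplakin) is a plakin-family linker that binds keratin filaments. FAM43A is little studied.

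Median log2 signals per array over all genes lay between 8.42 and 8.45. DHT 16 h replicate 2 stood apart in its control probe sets: its 3′ minus 5′ signal for ACTB was 1.52 log2 units, against 0.20 to 0.94 on the other 7 arrays, and for GAPDH it was 0.82 against 0.19 to 0.35. The 16 h differences of the 8 genes are therefore also given without that array. Of the 16 h calls of other genes named here, those of CBL, KAZN and SIPA1L1 were lost without it. FKBP5, a classical androgen target, rose by 0.98, 2.45 and 3.34 log2 units at 4, 16 and 48 h (limma, adjusted p = 0.00315, 1.6e-07 and 6.1e-09). Its call at 4 h was lost without either 4 h array (adjusted p up to 0.0807) and with the mean over its probe sets (0.326). Of the luminal markers measured, the lowest signal on any array was 9.13 for CDH1 and 11.6 to 14.1 for FOXA1, GATA3, XBP1, SPDEF, KRT8, KRT18, KRT19 and ERBB2. Basal KRT14 lay between 5.70 and 6.25, ESR1 between 8.23 and 8.62, the endothelial CDH5 between 4.96 and 5.16 and the leukocyte marker PTPRC between 7.51 and 7.80. Other markers of these kinds read higher: KRT5 7.95 to 8.71, CD3E 8.35 to 8.58 and the endothelial PECAM1 9.29 to 9.42. The mesenchymal COL1A1 read 10.57 to 10.70, so it and PECAM1 lay above the lowest CDH1 signal. The remaining ones lay between 6.58 (COL3A1) and 8.64 (PDGFRB). Signals of different probe sets do not compare amounts of transcript. Summed over the 4 immune and endothelial markers, log2 signals were 30.44 to 30.49 in vehicle and 30.14 to 30.75 over the DHT groups. The 5 mesenchymal markers summed to 41.4 to 42.3 in vehicle and 42.0 to 42.5 under DHT, and none of these 9 genes was called by limma at any time. The sum over the 9 luminal markers was 117.0 to 117.6 in vehicle. Under DHT it was 115.2 to 115.8 at 4 h, 115.9 to 117.0 at 16 h and 115.2 to 115.4 at 48 h. Beside FOXA1, GATA3 and KRT19, given below, limma called ERBB2 (-0.47 and -0.65) and CDH1 (-0.53 and -0.44) at 16 and 48 h. It called SPDEF at 16 h (0.41). The sum over the basal KRT5 and KRT14 was 13.8 to 14.4 in vehicle and 14.7 to 14.8 at 48 h, with KRT5 higher by 0.51 at 48 h. The part of these marker shifts in the results was not tested.

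Promoter sequence was available for 7 of the 8 genes, AMIGO2, FAM43A, SHISA2, PHLDB2, SIPA1L2, PPFIBP2 and MACC1, with 15 annotated starts (RefSeq, GRCh38.p14). The 250 bases before 4 of these starts are shown because they hold the matches found near the early genes AMIGO2 and PPFIBP2, and contrast SHISA2, an early gene, with MACC1, which was low only from 16 h. They lie at chr12:47079960-47080209 (minus strand), chr13:26052017-26052266 (minus), chr11:7605484-7605733 (plus, the fifth listed start of PPFIBP2, inside the gene) and chr7:20217385-20217634 (minus). Capitals mark exact matches on either strand.
AMIGO2: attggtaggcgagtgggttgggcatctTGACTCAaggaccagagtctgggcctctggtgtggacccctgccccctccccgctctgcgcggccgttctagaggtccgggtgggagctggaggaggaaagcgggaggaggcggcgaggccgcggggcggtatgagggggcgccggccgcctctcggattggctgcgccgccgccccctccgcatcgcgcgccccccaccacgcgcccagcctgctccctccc
SHISA2: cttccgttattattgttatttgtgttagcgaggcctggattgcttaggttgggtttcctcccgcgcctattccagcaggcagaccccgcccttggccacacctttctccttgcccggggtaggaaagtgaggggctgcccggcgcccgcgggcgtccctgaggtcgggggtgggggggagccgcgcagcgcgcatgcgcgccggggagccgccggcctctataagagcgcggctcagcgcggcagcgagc
PPFIBP2: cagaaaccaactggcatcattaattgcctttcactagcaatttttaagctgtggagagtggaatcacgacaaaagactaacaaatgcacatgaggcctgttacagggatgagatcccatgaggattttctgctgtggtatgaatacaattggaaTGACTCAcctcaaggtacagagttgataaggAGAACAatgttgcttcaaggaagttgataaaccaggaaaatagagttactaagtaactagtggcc
MACC1: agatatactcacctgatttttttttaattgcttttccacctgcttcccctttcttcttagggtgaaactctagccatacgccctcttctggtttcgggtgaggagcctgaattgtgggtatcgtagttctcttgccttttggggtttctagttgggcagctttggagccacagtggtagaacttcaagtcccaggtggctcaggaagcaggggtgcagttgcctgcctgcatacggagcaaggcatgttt
The motifs searched were AGAACA (a single arm of the androgen response element), the full palindromic element (that arm followed, after any 3 bases, by its reverse complement, so that it contains the single arm), TGTTTAC (forkhead factors), TGACTCA (AP-1) and TATAAA (the core promoter box bound by TBP). AGAACA stood before 1 of the 15 starts, in PPFIBP2 65 bases upstream, and before 12.4% of all 35116 promoters in the table. TGACTCA stood before 3 starts: 96 bases upstream in the same PPFIBP2 window, and 231 and 223 bases upstream of the neighbouring AMIGO2 starts, which share the site. It stood before 4.2% of all promoters. TATAAA stood before 1 start, the second listed of PHLDB2, 194 bases upstream, and before 10.7% of all promoters. Matches were exact and counted at any position, so they do not tell whether a start has a core promoter box. The near match tataag close to the end of the SHISA2 window was not counted. The full element and TGTTTAC were not among the letters of any of the 15 windows, and were in 0.00285% and 2.98% of all. Base composition was not shared: GC content ran from 40.4% in the PPFIBP2 window shown to 81.2% at SIPA1L2, with 67.6% at SHISA2, 73.2% at the AMIGO2 start shown and 49.2% at MACC1, against a median of 58% over all promoters. The MACC1 window held 4 CpG pairs and the SHISA2 window 26, with a median of 11.

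**Figure D1:**
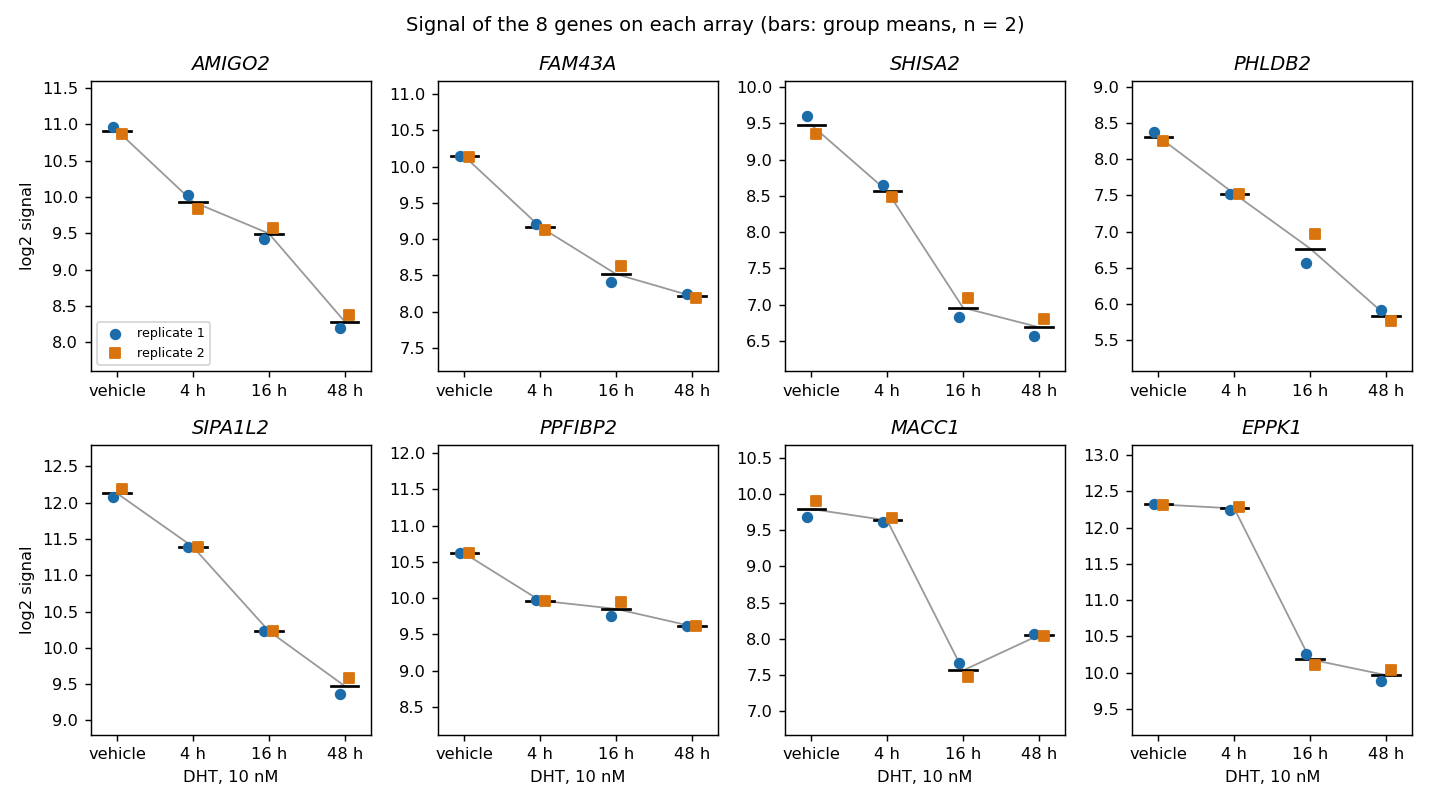
Log2 signal (vertical axis, each panel spanning the same number of units) of the 8 genes on the 8 arrays under vehicle and after 4, 16 and 48 h of 10 nM DHT; points are arrays and bars are means of 2. AMIGO2, PHLDB2 and SIPA1L2 step down at each time, while MACC1 and EPPK1 stay near vehicle at 4 h and are low at 16 h.

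AMIGO2 (chr12:47075707-47079959 of GRCh38.p14, as for the other genes), the adhesion protein, was lower at each later time. Its log2 signal was 10.97 and 10.87 in vehicle, 10.03 and 9.84 at 4 h, 9.42 and 9.58 at 16 h, and 8.19 and 8.37 at 48 h. No group overlapped another. The differences from vehicle were -0.98 ± 0.11 at 4 h, -1.42 ± 0.11 at 16 h and -2.63 ± 0.11 at 48 h (SE from limma, n = 2 per group), which is 1.98-, 2.68- and 6.21-fold below vehicle. The widest step of AMIGO2 was the last, -1.21 between 16 and 48 h, against -0.44 between 4 and 16 h. Without DHT 16 h replicate 2 the 16 h difference was -1.50.

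PHLDB2 (chr3:111732496-111976517), the cortical anchor of microtubules, was lower at each later time too. Vehicle arrays read 8.38 and 8.25, the 4 h arrays 7.52 and 7.53, the 16 h arrays 6.57 and 6.96, and the 48 h arrays 5.92 and 5.76. The 16 h replicates lay 0.39 apart, the widest replicate gap in these 8 genes, yet groups did not overlap. Differences from vehicle were -0.79 ± 0.13, -1.54 ± 0.13 and -2.47 ± 0.13 at 4, 16 and 48 h, and without DHT 16 h replicate 2 the 16 h value was -1.74. The steps of PHLDB2 were -0.76 from 4 to 16 h and -0.92 from 16 to 48 h, and -0.95 and -0.73 without that array, so which was longer rested on it. The deposited values hold no call of signal above background, and KRT14 read 5.70 to 6.25, so no fold is given for the 48 h signal of PHLDB2.

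SIPA1L2 (chr1:232397965-232630496), the Rap inactivator, had 12.07 and 12.18 in vehicle, 11.39 and 11.40 at 4 h, 10.23 on both 16 h arrays, and 9.36 and 9.58 at 48 h. All 4 groups were separate, with replicates close at 4 and 16 h. Differences from vehicle were -0.74 ± 0.10 at 4 h, -1.90 ± 0.10 at 16 h (-1.90 also without replicate 2) and -2.66 ± 0.10 at 48 h, which is 6.31-fold lower. In AMIGO2, PHLDB2 and SIPA1L2, the 4 h difference was 37.3%, 31.9% and 27.8% of that at 48 h, and the 16 h difference 53.9%, 62.5% and 71.5%. The shares of PHLDB2 carry the limit given for its 48 h signal.

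SHISA2 (chr13:26044597-26052016), which retains growth factor receptors, showed the largest 48 h difference of the 8 genes, -2.79 ± 0.13, or 6.91-fold in probe set signal, which is a lower bound if the 48 h arrays are at background. Its arrays read 9.60 and 9.35 in vehicle, 8.64 and 8.49 at 4 h, 6.82 and 7.09 at 16 h, and 6.57 and 6.81 at 48 h. Most of the descent lay between 4 and 16 h (-1.61), and by 16 h the difference from vehicle, -2.52 ± 0.13 (-2.65 without replicate 2), was 90.4% of that at 48 h. The 16 and 48 h groups nearly touched, 0.017 apart at the closest arrays, and the step between their means was -0.27, the size of the gap between the 16 h replicates. Without DHT 16 h replicate 2 that step was -0.13. Whether background limited that step and the 90.4% share cannot be told, as the deposited values hold no call of signal above background.

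FAM43A (chr3:194685883-194689037) had the same order with a smaller total. Vehicle arrays read 10.15 and 10.14, the 4 h arrays 9.21 and 9.12, the 16 h arrays 8.41 and 8.63, and the 48 h arrays 8.24 and 8.19. Groups did not overlap. The difference of FAM43A from vehicle was -0.97 ± 0.10 at 4 h, 50.5% of that at 48 h, then -1.63 ± 0.10 at 16 h (-1.73 without replicate 2) and -1.93 ± 0.10 at 48 h, or 3.81-fold.

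PPFIBP2 (chr11:7513999-7667304), the liprin, differed least of the 8 at 16 and 48 h. It read 10.62 on both vehicle arrays, 9.98 and 9.96 at 4 h, 9.76 and 9.95 at 16 h, and 9.62 and 9.61 at 48 h. The 4 h difference, -0.65 ± 0.09, was already 64.9% of the 48 h one, -1.01 ± 0.09 (2.01-fold). Between 4 and 16 h the step was -0.11, less in size than the 0.19 between the 16 h replicates, so this pair of neighbours did not differ beyond its spread. Without DHT 16 h replicate 2 the step was -0.21, with 0.02 between the 4 h replicates. The 16 h difference of PPFIBP2 was -0.77 ± 0.09, and -0.86 without replicate 2.

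MACC1 (chr7:20134655-20217384), the MET regulator, was low late, and its main probe set read higher at 48 h than at 16 h. Its arrays read 9.69 and 9.90 in vehicle, 9.61 and 9.66 at 4 h, 7.66 and 7.47 at 16 h, and 8.06 and 8.04 at 48 h. The 4 h difference from vehicle was -0.16 ± 0.11, smaller than the 0.21 between vehicle replicates. At 16 h the difference was -2.23 ± 0.11 (-2.13 without replicate 2), or 4.68-fold, and at 48 h -1.74 ± 0.11, or 3.34-fold. Both 48 h arrays thus lay above both 16 h arrays, by 0.49 on average (0.39 without DHT 16 h replicate 2), which was seen in none of the other 7 genes.

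EPPK1 (chr8:143857324-143879194), the keratin linker, had 12.33 and 12.31 in vehicle, 12.25 and 12.28 at 4 h, 10.26 and 10.11 at 16 h, and 9.89 and 10.04 at 48 h. Its difference was -0.06 ± 0.10 at 4 h, 2.41% of that at 48 h, and -2.14 ± 0.10 at 16 h (-2.06 without replicate 2). At 48 h it was -2.35 ± 0.10, a 5.12-fold difference. Nearly the whole descent of EPPK1 lay between 4 and 16 h (-2.08), as in MACC1 (-2.07).

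**Figure D2:**
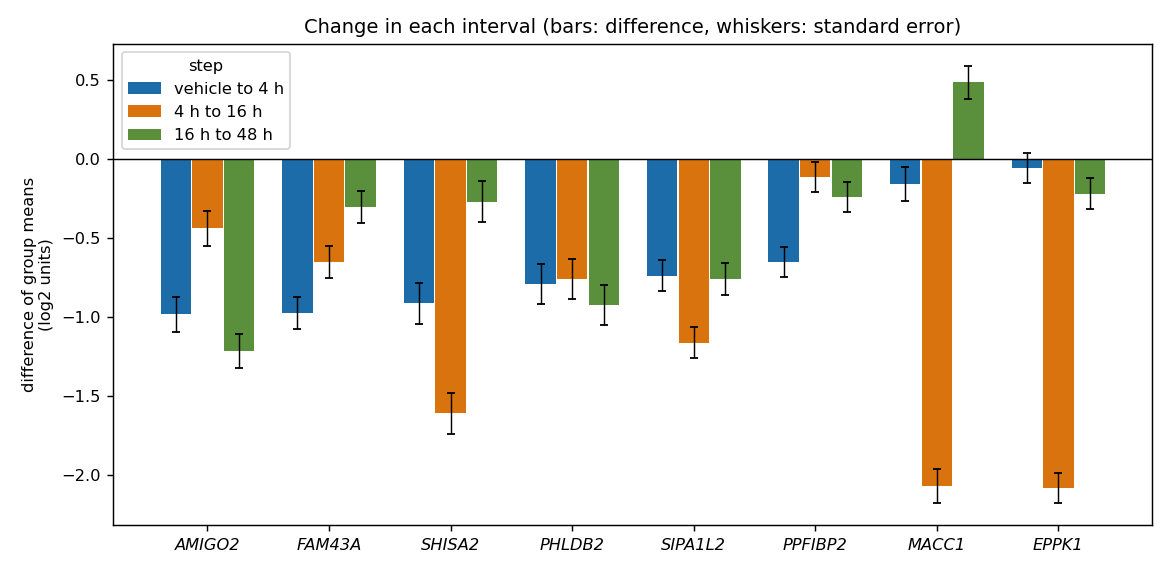
Difference of group means (log2 units, vertical axis) for each gene over the intervals vehicle to 4 h, 4 to 16 h and 16 to 48 h; whiskers are standard errors of the fit. FAM43A and PPFIBP2 have their longest bar in the first interval, SHISA2, SIPA1L2, MACC1 and EPPK1 in the second, and AMIGO2 and PHLDB2 in the last (PHLDB2 in the second without DHT 16 h replicate 2); the bar above 0 is MACC1 after 16 h (0.49).

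For all 8 genes both DHT arrays lay below both vehicle arrays at 4, 16 and 48 h, as did 20.8%, 21.1% and 26.1% of all genes at these times, and nothing is read from that count because the genes were chosen on these contrasts. From 4 to 16 h, all 8 again had separate, lower arrays, against 19.9% of all genes. From 16 to 48 h, 7 were lower without overlap (21.4% of all genes) and MACC1 was higher (15.9%). The rule used these arrays too. Of the 24 neighbouring steps in the order of group means, 22 exceeded the larger replicate gap of both groups. The other 2 were vehicle to 4 h in MACC1 and 4 to 16 h in PPFIBP2. That count was not made over all genes, so nothing is read from it. The median difference of the 8 genes from vehicle was -0.76, -1.76 and -2.41 at 4, 16 and 48 h, with 0.00, 0.02 and 0.01 over all genes.

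Other probe sets existed for 5 of the genes, 13 in all. The second of SIPA1L2 (mean signal 10.6) was close to the main one and differed from vehicle by -0.85, -1.75 and -2.62 at 4, 16 and 48 h (-1.99 at 16 h without DHT 16 h replicate 2). The third (mean signal 8.36) had smaller differences, -0.29, -1.21 and -1.04, and -0.81 at 16 h without that array. Both further MACC1 probe sets were low from 16 h as well, at -2.01 and -2.42 at 16 h and -1.70 and -1.85 at 48 h. At 4 h they read 0.04 ± 0.17 and 0.19 ± 0.31, each within its standard error of vehicle. The step of these MACC1 probe sets from 16 to 48 h rested on DHT 16 h replicate 2: without it the 16 h differences were -1.72 and -1.88, the steps were 0.02 and 0.03, and the 16 h array lay between the 48 h arrays. In EPPK1, probe sets at mean signals 10.6 and 10.2 read -2.29 and -1.47 at 16 h, while dimmer ones, at 8.36 and 7.34, read -0.17 and 0.09. For PHLDB2 no other probe set had differences as large as the main one. Those at mean signals 6.15, 4.54 and 4.02 read 0.17, -0.03 and 0.19 at 16 h. The one at 4.80 was lower at each time, by -0.52, -0.53 and -0.72 at 4, 16 and 48 h. The second FAM43A probe set read -0.01, -0.37 and -0.24 at the 3 times, and -0.07 at 16 h without DHT 16 h replicate 2. AMIGO2, SHISA2 and PPFIBP2 had 1 probe set each. The main ones of PHLDB2, SIPA1L2, PPFIBP2 and EPPK1 are named _s_at, a suffix for probes shared by several transcripts.

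**Figure D3:**
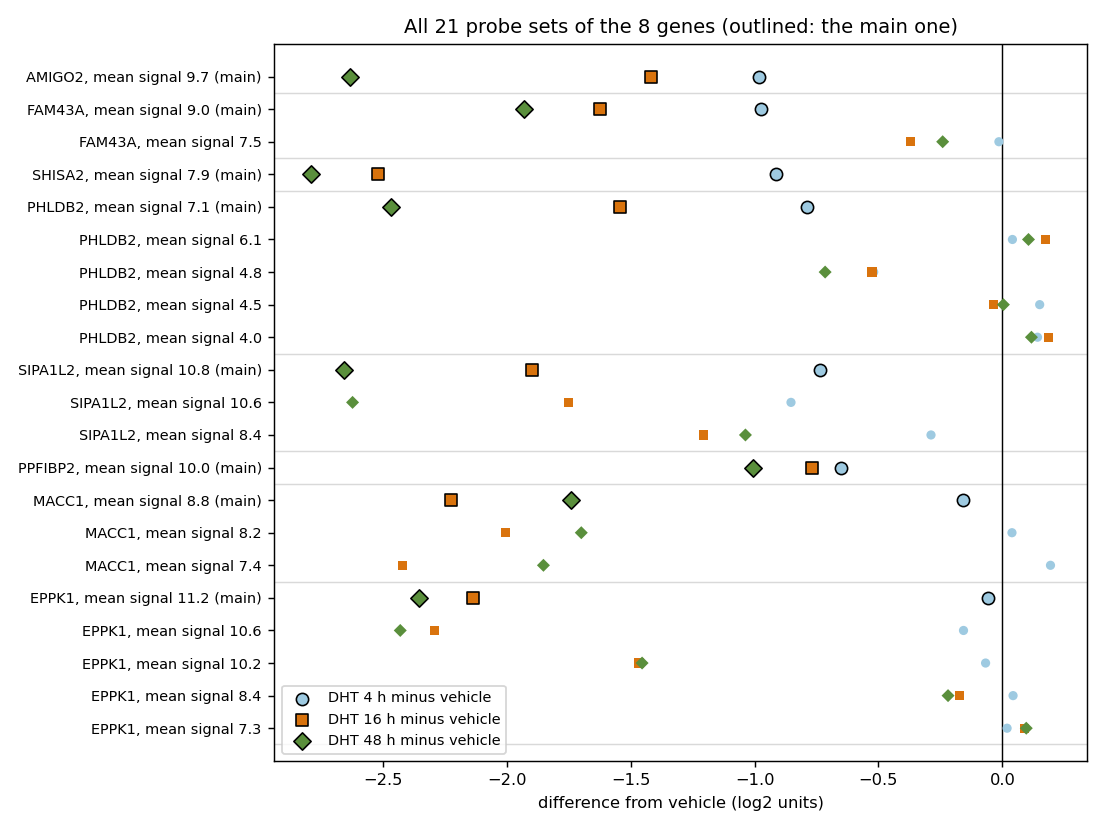
Difference from vehicle (log2 units, horizontal axis) at 4, 16 and 48 h for all 21 probe sets of the 8 genes, each labelled with its mean log2 signal; outlined symbols are the main probe set. MACC1 reads between -2.42 and -2.01 at 16 h in all 3 of its probe sets (-2.13 to -1.72 without DHT 16 h replicate 2), whereas 3 of the 4 further PHLDB2 probe sets stay near 0.

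Across the 8 arrays, the genes ran together to different degrees. Pearson's r between a pair of them lay between 0.72 and 0.98 (median 0.93 over 28 pairs), on points that share arrays and treatment groups. AMIGO2 and PHLDB2 had the highest value (0.98), and SIPA1L2 with PHLDB2 nearly the same (0.98). Among the 6 genes already low at 4 h the lowest value was 0.91, that of SHISA2 with PPFIBP2. MACC1 and EPPK1 were alike (0.97), and the lowest value was that of MACC1 with PPFIBP2 (0.72). SHISA2 stood between, at 0.96 with EPPK1 and 0.97 with FAM43A.

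**Figure D4:**
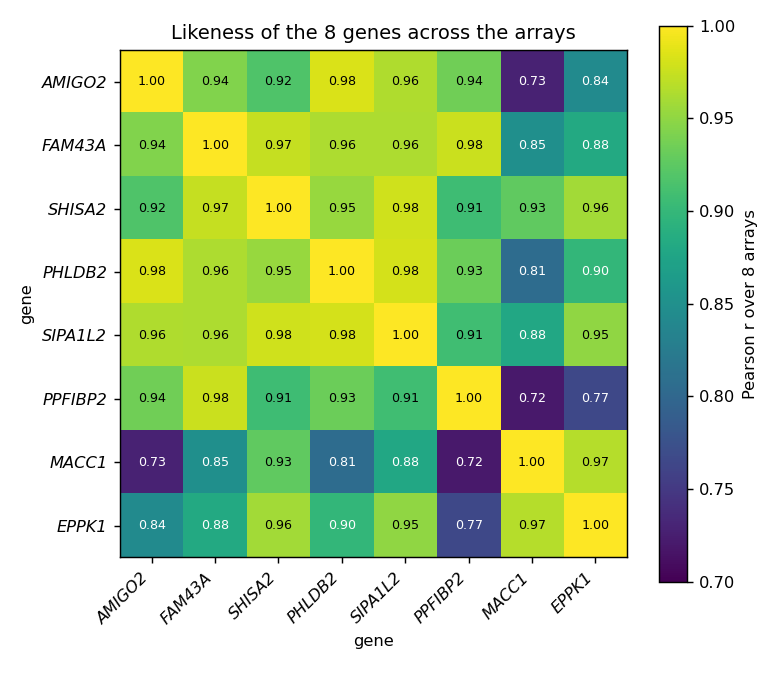
Pearson's r over the 8 arrays (colour and printed value) between each pair of the 8 genes; both axes list the genes. MACC1 is at 0.97 with EPPK1 and 0.72 with PPFIBP2.

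Genes with the most similar course were ranked by Pearson's r over the 8 arrays among all other genes, the rest of the 8 included, with a mean log2 signal of at least 6 and group means spanning at least 0.8 (537 candidates for each). AMIGO2 was closest to STS, the steroid sulfatase (0.99), the epithelial factor GRHL3 and the ubiquitin ligase RNF19A, with log2 differences of -1.66, -1.04 and -1.23 at 48 h. RNF19A was also the nearest to PHLDB2, before EPB41L4A (-1.36 at 48 h) and FAM98B. SIPA1L2 was closest to AJUBA, a LIM protein of cell junctions (-1.82 at 48 h), KMO, an enzyme of tryptophan breakdown (-1.80), and FRMD6, a FERM-domain protein (-1.35). FAM43A stood nearest to EPHA4, an ephrin receptor (0.99; -1.59 at 48 h), RAB27B, a secretory Rab (-0.93), and TPRG1 (-1.63). For SHISA2 the nearest were RALGPS2, an activator of Ral GTPases (-0.87), the secreted netrin NTN4 (-2.08) and EXT1, a heparan sulfate polymerase (-0.97). PPFIBP2 had FUNDC1, TM4SF1 and FAM43A itself, and fewer close neighbours than the others: 14 candidates above r = 0.95, against 40 to 105 for the other 7 genes.

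MACC1 was closest to DTNA, a dystrophin-associated protein whose log2 difference also went from -1.45 at 16 h to -1.07 at 48 h, and then to the replication factor PCLAF (-0.85 and -0.66) and SCCPDH (-1.31 and -1.23). EPPK1 was closest to ZYX (zyxin, -1.23 at 16 h), PALLD (palladin, -3.75), both of actin-rich adhesion sites, and the cotransporter SLC12A2 (-1.40). At 4 h these differences from vehicle were 0.04 for ZYX, -0.43 for PALLD and -0.19 for SLC12A2. The brightest PALLD probe set outside the _s_at and _x_at kinds read 0.01 at 16 h.

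Outside the 8 genes, limma called 8 genes lower at 4 h, where 0.0708% of all genes were called lower. PDE4B, a cyclic AMP phosphodiesterase, differed from vehicle most among them (-1.24 at 4 h, adjusted p = 0.00053, and -2.12 at 48 h). EPHA4 (-0.66), KMO (-0.61), SCYL3 (-0.63) and the tetraspanin-like TM4SF1 (-0.59) fell at 4 h and were -1.59, -1.80, -1.06 and -0.92 at 48 h. INSIG2, which restrains sterol synthesis, had -0.61 at 4 h and -0.48 at 48 h. MYCN (-0.63) and the secreted STC1 (-0.60) were at -0.23 and -0.10 by 48 h, with no call there (adjusted p = 0.189 and 0.591). The comparisons at 4 and 48 h share the vehicle arrays. The 4 h calls of EPHA4, MYCN, SCYL3, INSIG2, KMO, STC1 and TM4SF1 were each lost without any single vehicle, 4 h or 48 h array (adjusted p up to 0.571, 0.397, 0.407, 0.396, 0.407, 0.599 and 0.397), while that of PDE4B was kept in all 8 such fits. Adjusted over all probe sets, the calls of those 7 genes at 4 h had p between 0.147 and 0.216. Without vehicle replicate 1 INSIG2 had adjusted p = 0.0598 at 16 h, and without DHT 48 h replicate 1 it had 0.0511 at 48 h. MYCN read 0.04 at 4 h in its brightest probe set outside the _s_at and _x_at kinds.

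Genes that work with the 8 proteins were listed by family, complex or pathway in 8 lists, which were not picked by how they moved, and 115 of 121 were measured. At 4 h limma called 0 of the 115 at adjusted p below 0.05 over all genes, where 0.177% of all genes were called, and 11 had an unadjusted p below 0.05. With an intensity trend in the fit, 1 was called. At 16 h 9.57% of the partners were called, against 6.85% of all genes: 5 rose (2.55% of all genes did) and 6 fell (4.3%). At 48 h 14.8% were called, against 9.51%: 6 rose (3.13%) and 11 fell (6.38%). By list, 23.5% of Rap and 23.1% of MET genes were called at 16 h, and 0% to 9.09% in the others. At 48 h it was 29.4% of Rap, 23.1% of MET, 21.4% of pioneer factor and corepressor and 18.2% of plakin and filament genes. The others had 0% to 10% there. These shares, in lists of 11 to 20 measured genes, were not tested. Between 4 and 16 h 5 of the 115 were called, with 3.05% of all genes, and between 16 and 48 h 2 were, with 0.829%. Leaving out vehicle replicate 1 brought these calls to 5 at 16 h and 9 at 48 h, and leaving out DHT 48 h replicate 1 brought those at 48 h to 10. The median difference of the 115 from vehicle was -0.03, -0.01 and -0.03.

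Close relatives of the 8 genes mostly had no call. AMIGO1 differed from vehicle by 0.01, 0.21 and 0.05 at 4, 16 and 48 h, and FAM43B by -0.03, -0.16 and -0.10. SHISA3 to SHISA9, 7 genes, lay between -0.14 and 0.17 at all 3 times, the ends being SHISA9 at 4 h and SHISA5 at 16 h. Their vehicle means ran from 4.45 for SHISA3, 6.35 for SHISA8 and 6.60 for SHISA7 up to 10.8 for SHISA5. In the dim ones a fall could go unseen. PHLDB1 and PHLDB3 read 0.04 and -0.19 at 48 h, the liprin PPFIBP1 -0.35 at 16 h and -0.07 at 48 h, and SH3BP4, the relative of MACC1, -0.31 and -0.22. Of 5 PPFIBP1 probe sets, 4 were below vehicle at 16 h and 5 at 48 h. Those beside the main one, all dimmer, read 0.11, -0.63, -0.37 and -0.48 at 16 h. At 48 h the same ones read -0.02, -0.36, -0.25 and -0.27, and no call is given for them. PLEC (plectin), the plakin that links filaments to hemidesmosomes, read 0.07 at 48 h. Of the Rap inactivators related to SIPA1L2, SIPA1 (-0.20 at 48 h) and SIPA1L3 (-0.03) had no call, and SIPA1L1 fell by 0.45 at 16 h (adjusted p = 0.015) and 0.39 at 48 h (adjusted p = 0.0245). That SIPA1L1 result was lost at 16 h without vehicle replicate 1, vehicle replicate 2 or DHT 16 h replicate 2 (adjusted p = 0.0832, 0.0760 and 0.0922), and at 48 h without either vehicle or either 48 h array (0.105, 0.101, 0.185 and 0.0610). Its probe set outside the _s_at and _x_at kinds read 0.00 at 16 h.

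**Figure D5:**
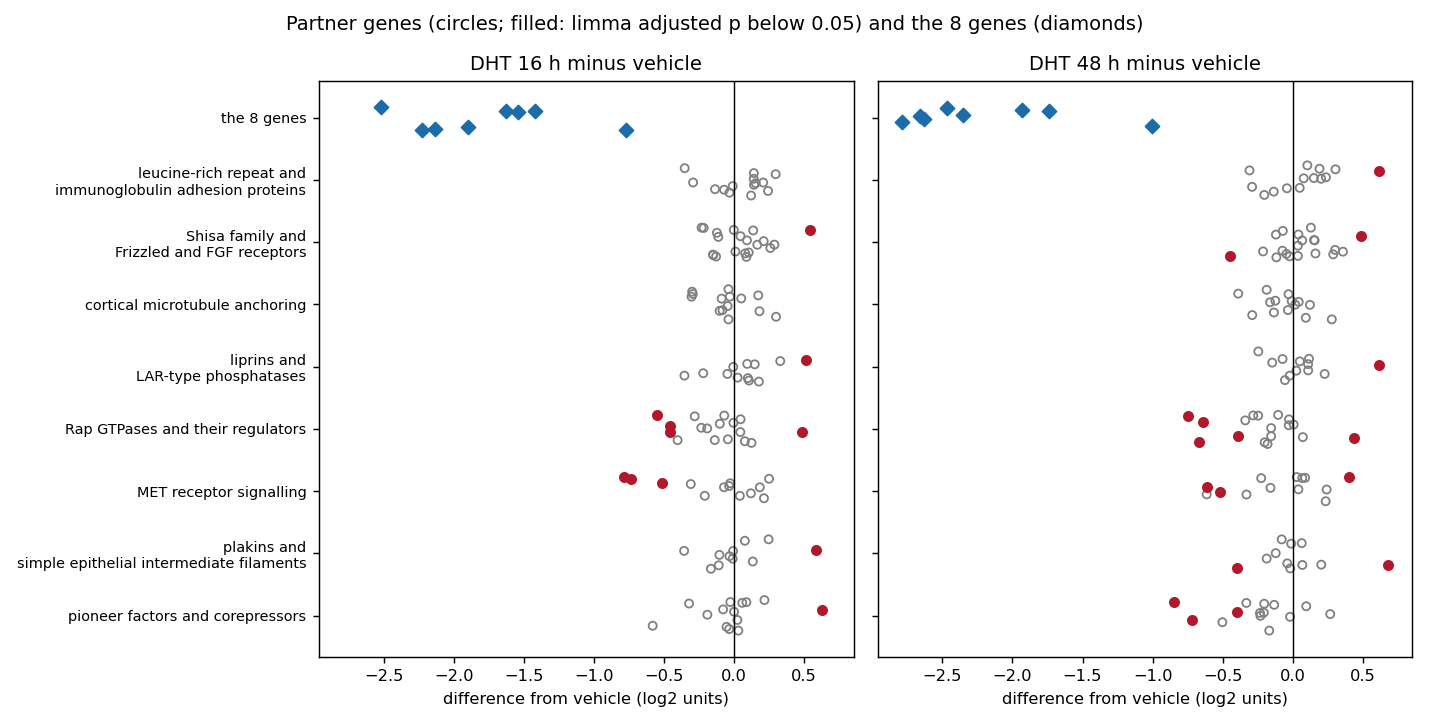
Difference from vehicle (log2 units, horizontal axis) at 16 h (left) and 48 h (right) of each partner gene, by list, with filled circles for limma adjusted p below 0.05, and of the 8 genes as diamonds. Partner genes lie between -0.85 and 0.68 at both times, and the 6 called lower at 16 h are Rap and MET signalling genes, while at 48 h the lowest is GATA3 (-0.85).

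Rap GTPases and their regulators, the partners of SIPA1L2, had 1 higher and 3 lower of 17 at 16 h and 1 higher and 4 lower at 48 h. Their median difference was -0.18 at 48 h, with 0.01 over all genes. RAP2B fell by 0.55 at 16 h and 0.67 at 48 h (adjusted p = 0.00485 and 0.00094), and its second bright probe set read -0.98 and -0.61. RAP2C fell by 0.46 and 0.64 (adjusted p = 0.0157 and 0.0016), with -0.63 and -0.87 in its other probe set. At 4 h these RAP2C probe sets already read -0.47, with no call (limma adjusted p = 0.114), and -0.71. RAPGEF2, an activator of Rap, fell by 0.75 at 48 h (adjusted p = 0.00175), and its brightest probe set outside the _s_at and _x_at kinds read -0.07 with no call (adjusted p = 0.794). RAP1GAP, a Rap inactivator like SIPA1L2, rose by 0.49 at 16 h and 0.44 at 48 h (adjusted p = 0.00617 and 0.00813). Without vehicle replicate 1, the 16 h calls of RAP2B (adjusted p = 0.0535) and RAP2C (0.153) and the 48 h call of RAP1GAP (0.0531) were lost, and the last also without DHT 48 h replicate 1 (0.0556). With the mean over its probe sets RAP1GAP had no call at either time (0.25 and 0.23, adjusted p = 0.0974 and 0.104).

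MET itself, the receptor whose gene MACC1 activates, stayed between 8.75 and 8.85 on all 8 arrays, and its differences from vehicle were -0.03, 0.04 and 0.03. Its 3 other probe sets, at mean signals 7.84, 6.03 and 5.57, lay between -0.11 and 0.17. As the deposited values hold no call of signal above background, whether MET was detected cannot be told. In the list of 13 MET signalling genes, 3 fell at 16 h, and 1 rose and 2 fell at 48 h. GAB1, the docking protein of MET, fell by 0.73 and 0.61 (adjusted p = 0.00056 and 0.00119). Its arrays read 9.88 and 9.86 in vehicle, 9.14 and 9.15 at 16 h, and 9.23 and 9.30 at 48 h. Lower values at 16 h stood in 4 of 7 GAB1 probe sets. SPINT1, an inhibitor of the proteases that activate HGF, fell by 0.51 and 0.52 (adjusted p = 0.00456 and 0.00288). The ubiquitin ligase CBL fell by 0.79 at 16 h (adjusted p = 0.0300), a call lost without vehicle replicate 1 (-0.60, adjusted p = 0.256) or DHT 16 h replicate 2 (0.157). MST1R, the MET-related receptor, rose by 0.40 at 48 h (adjusted p = 0.0406), a call lost without vehicle replicate 1 (0.310), either 48 h array (0.305 and 0.0562) or either 4 h array (0.0618).

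Among Frizzled and FGF receptors and Shisa relatives, the partners of SHISA2, 1 of 20 rose at 16 h, and 1 rose and 1 fell at 48 h. FZD4 rose by 0.54 and 0.49 (adjusted p = 0.00671 and 0.00859), and FZD7 fell by 0.45 at 48 h (adjusted p = 0.0350). FZD4 lost its calls without vehicle replicate 1 (0.0656 at 16 h, 0.0748 at 48 h), and at 48 h also without either 48 h array (0.0612 and 0.0532). FZD7 lost its call without either vehicle array (0.173 and 0.101) or either 48 h array (0.170 and 0.133). The leucine-rich repeat adhesion proteins related to AMIGO2 had 0 of 14 called by limma at 4 and 16 h, with 1 and 4 at an unadjusted p below 0.05. At 48 h 1 rose, LRIG1, a brake on ERBB receptors (0.62, adjusted p = 0.0036), a call lost with the mean over its probe sets (0.42, adjusted p = 0.142).

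In the cortical microtubule list of PHLDB2, which holds the CLASP, ERC, KANK and talin genes, 0 of 14 were called by limma at any time, with 0, 2 and 2 at an unadjusted p below 0.05. Differences there ranged from -0.39 to 0.30 over 16 and 48 h. Of 12 liprin and LAR-phosphatase genes, KAZN rose at 16 h (0.51, adjusted p = 0.0148) and PPFIA4 at 48 h (0.62, adjusted p = 0.00645). KAZN lost its call without either vehicle array (0.0761 and 0.0781) or DHT 16 h replicate 2 (0.0923), and PPFIA4 without vehicle replicate 1 (0.0602) or DHT 48 h replicate 2 (0.0646).

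Of 11 plakin and filament genes, the partners of EPPK1, KRT19 rose at 16 and 48 h (0.58 and 0.68, adjusted p = 0.00295 and 0.00068), and the plakin PPL fell at 48 h (-0.40, adjusted p = 0.0292). PPL lost that call without any single vehicle (0.199 and 0.0588), 48 h (0.125 and 0.129) or 4 h array (0.0532). Among 14 pioneer factors and corepressors, TLE3 rose at 16 h (0.63, adjusted p = 0.00166). At 48 h GATA3 (-0.85, adjusted p = 0.00013), FOXA1 (-0.72, adjusted p = 0.00064) and CTBP2 (-0.40, adjusted p = 0.0371) fell. GATA3 and FOXA1 are luminal transcription factors, and all their probe sets were below vehicle at 48 h, 3 of 3 and 2 of 2. At 4 h they read -0.23 and -0.52, with no call (limma adjusted p = 0.552 and 0.0715). CTBP2 lost its call without any single vehicle (0.0626 and 0.184), 48 h (0.148 and 0.153) or 4 h array (0.0566).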

How the data were processed

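Per the labels, the deposited values are log2 signals that the authors made with RMA (robust multi-array average: background correction, quantile normalisation and summary per probe set), version not given in the sources used here. No further normalisation was applied. Of 54675 probe sets, 62 were controls, 41091 had 1 gene symbol in the platform annotation, 1801 several and 11721 none. Each of 19775 genes was read by its brightest probe set with 1 symbol. Group means of the 4 groups were estimated over the 8 arrays together (R 4.3.3, limma 3.58.1; 4 residual and 7.21 prior degrees of freedom), two-sided, with Benjamini-Hochberg adjustment over all genes and calls at adjusted p below 0.05. With 2 arrays per group, precision is limited by their number.

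The 8 genes, the partner lists and the settings were chosen with earlier results of these data known, so no comparison of the 8 genes carries a test. The genes named in the text are those 8, their relatives with MET and FKBP5, up to 3 called genes with the largest difference per list and time, the 3 genes most like each of the 8, and all genes called lower at 4 h. Replicate numbers were not used in the fit, since the labels do not tie equal numbers to a common culture or day. Some listed genes are not analysed here. A planned description of protein sequences was not run.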

Additional observations from a re-analysis of the deposited data

Results flagged for a closer look

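For 7 partner genes the difference from vehicle differed between times by limma's test between DHT groups. From 4 to 16 h, where 3.05% of all genes were called, KRT19 changed by 0.63 and TLE3 by 0.45, and RAP2B by -0.44, GAB1 by -0.40 and SPINT1 by -0.38 log2 units (adjusted p = 0.00348, 0.0204, 0.0296, 0.0348 and 0.0377). From 16 to 48 h, where 0.829% were called, GATA3 and FOXA1 each changed by -0.53 (adjusted p = 0.0224 and 0.0288). Against vehicle, FOXA1 read -0.52 at 4 h (no call, limma adjusted p = 0.0715), -0.19 at 16 h and -0.72 at 48 h. Its 16 h value thus lay above those at 4 and 48 h. The other FOXA1 probe set read -0.57, -0.87 and -0.77 at these times, without a fall from 16 to 48 h. The other GATA3 probe sets fell further (-0.83 to -1.46 and -0.57 to -1.16). From 4 to 16 h the other SPINT1 probe set went from -0.06 to -0.14, and the second bright one of RAP2B from -0.11 to -0.98. Of GAB1, probe sets at mean signals 8.36, 8.08 and 7.82 fell in that interval, and those at 9.03 and 7.28 did not. All 7 calls were lost without at least 1 array: KRT19 without DHT 4 h replicate 1 (adjusted p = 0.0638), TLE3 without either 4 h array or DHT 16 h replicate 1 (up to 0.154), RAP2B without those and either 48 h array (up to 0.258), GATA3 and FOXA1 without DHT 16 h replicate 2 or any 4 h or 48 h array (up to 0.214 and 0.274), and GAB1 and SPINT1 without any of the 8 (up to 0.305 and 0.238).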

How the results depend on the processing

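The 24 differences of the 8 genes from vehicle were below 0 in every setting tried, except MACC1 at 4 h, which read 0.03 with the mean over its probe sets. That mean, which takes in probe sets with smaller differences, brought PHLDB2 at 48 h from -2.47 to -0.59, FAM43A from -1.93 to -1.08 and EPPK1 from -2.35 to -1.27. Genes called at 4 h were 35, with 8 when adjusted over all probe sets, 18 outside the _x_at and _s_at kinds, 67 with an intensity trend, and 5 to 60 without 1 array (5 without DHT 4 h replicate 2). At 16 h they were 1354, with 813 adjusted over all probe sets, 894 outside those kinds, 798 with only the 4 arrays compared, and 517 to 1654 without 1 array (517 without vehicle replicate 1). At 48 h they were 1881, with 1229 adjusted over all probe sets and 834 to 2211 without 1 array (834 without DHT 48 h replicate 1, 844 without vehicle replicate 1). Called partner genes were 0, 11 and 17; with an intensity trend 1 was called at 4 h, and without 1 array they were 0, 5 to 12 and 9 to 20. Shifted to equal housekeeping signal, calls split 35 higher and 13 lower at 4 h (21 and 14 as deposited) and 824 and 700 at 16 h (504 and 850). Outside the _x_at and _s_at kinds 3 named calls turned sign, to 0.0421 for MYCN at 4 h, 0.0123 for PALLD at 16 h and 0.0022 for SIPA1L1 at 16 h. PPFIBP2 has no such probe set. With the replicate number as a block (replicate block), 25, 1261 and 1729 genes and 0, 12 and 16 partner genes were called; equal numbers did not deviate together, with r between groups from -0.24 to 0.20. Of 89 named calls outside the 8 genes, 64 were kept without any 1 array. With genes spanning at least 1.5 as candidates, chosen after seeing the data, MACC1 was closest to GDF15, VCL and SLITRK6 instead. Over 300 bases, or the first start of each gene, the share of promoters with AGAACA was 14.8% or 12.4%. Partner calls lost with the mean over a gene's probe sets, beside those given above, were CBL (adjusted p = 0.109), KAZN (0.194) and SIPA1L1 (0.275) at 16 h and CTBP2 (0.0712) at 48 h. Adjusted over all probe sets, CBL (0.0899), FZD7 (0.0831), MST1R (0.0894), PPL (0.0663), CTBP2 (0.0820) and SIPA1L1 at 48 h (0.0567) were lost. With only the arrays compared, KAZN (0.0633), RAP2C (0.0572) and SIPA1L1 (0.0627) at 16 h and MST1R (0.0611) at 48 h were lost. The causes of these shifts were not otherwise tested.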
